A study of Drosophila melanogaster with 8 samples.

Results

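The 7 genes described here encode the metabotropic receptors of the fast neurotransmitters in the fly: the muscarinic acetylcholine receptors mAChR-A, mAChR-B and mAChR-C, the GABA-B receptors GABA-B-R1, GABA-B-R2 and GABA-B-R3, and the metabotropic glutamate receptor mGluR. They were taken by name from the 17868 genes of the deposited tables, without use of their values, and all 7 had a row. RNA had been sequenced from EGFP-labeled neurons of dissected brains of about 2-week-old male flies, collected by FACS at ZT2 or ZT14 (2 or 14 h after lights on at 25 °C in 12 h of light and 12 h of dark). In 4 libraries EGFP was driven by clk856-GAL4, which labels clock neurons (clk856>EGFP, about 500 cells per library from about 30 brains), and in 4 libraries by nSyb-GAL4, which labels neurons of all kinds and so does not leave out the clock neurons (nSyb>EGFP, about 1000 cells per library from about 10 brains). Each genotype had 2 libraries per time point (R1 and R2), and the flies of both genotypes carried a GAL4 driver and the UAS reporter, with no further treatment. Per the study's methods, each dissociation gave 2 collections of cells, and whether R1 and R2 are such a pair is not said. The p-values below therefore measure the spread between these libraries, which may in part be technical.

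Metabotropic receptors are G protein coupled receptors: they do not open a channel themselves but signal through heterotrimeric G proteins, which makes the response to acetylcholine, GABA or glutamate slower and more lasting than that of the nicotinic, GABA-gated or glutamate-gated channels. In Drosophila, mAChR-A couples to Gq and mAChR-B to Gi, while GABA-B receptors and mGluR act through Gi/o and are inhibitory. GABA-B receptors are known from the PDF neurons of the clock network, and mGluR is known to take part in signaling by glutamate between clock neurons.

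The clk856 libraries held 4823985 to 8439193 reads on genes and the nSyb libraries 7970236 to 8449829, and 3 reads, taken as the limit of detection, corresponded to 0.161 to 0.299 RPM (reads scaled by a library total, as deposited). That limit covers counting error only, since PCR copies are not independent molecules. The summed level of 4 neuron markers (elav, nSyb, brp and Syt1) was 2204 to 2324 RPM in the clk856 libraries and 2024 to 2241 RPM in the nSyb libraries. All 6 clock neuron markers (Clk, tim, per, vri, cry and Pdf) passed the test as higher in the clk856 libraries, with sums of 303 to 1348 RPM against 11.2 to 54.1 RPM. The 6 glia markers summed to 36.3 to 68.4 RPM in the clk856 libraries and to 72.2 to 187 RPM in the nSyb libraries. Eaat1, Gs2, alrm and wrapper had the lower mean in the clk856 libraries. The means of repo (2.53 against 1.62 RPM) and moody (1.34 against 0.11 RPM) were higher there, with repo at most at 6.47 RPM in any library. The part of these differences in the results below was not tested. The fat body markers summed to at most 21.3 RPM in both genotypes with Lsp2 at 0, the photoreceptor markers to at most 6.80 RPM with ninaE, trp and ninaC at 0 in the nSyb libraries and inaD at 0 in the clk856 libraries, the hemocyte markers to at most 14.4 RPM, with 2 of 3 at 0 in the nSyb libraries, and the muscle markers to at most 0.35 RPM. Index numbers appear in the names of the nSyb libraries alone, and if the names follow the sequencing run, the effect of the run and that of the genotype cannot be told apart.

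Of the 7 receptor genes, mAChR-B was the one up-regulated in the clock neurons, at 1.93 times its mean in the nSyb neurons. This was 1 call among 6 receptor genes tested, beside 17.0% of all genes tested that passed in either direction. With the libraries of either time point alone mAChR-B did not pass. The Gq-coupled receptor gene mAChR-A had the lower mean in the clk856 neurons and GABA-B-R2 the higher one, but neither passed the test. For GABA-B-R1, GABA-B-R3 and mGluR the libraries of the genotypes overlapped and the test was not passed, and mAChR-C was at the limit of detection. No receptor gene passed the test between ZT2 and ZT14 in either genotype. That test, 2 libraries against 2, passed only 2 of the 6 clock neuron markers in the clk856 libraries, so it can miss real changes.

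**Figure D1:**
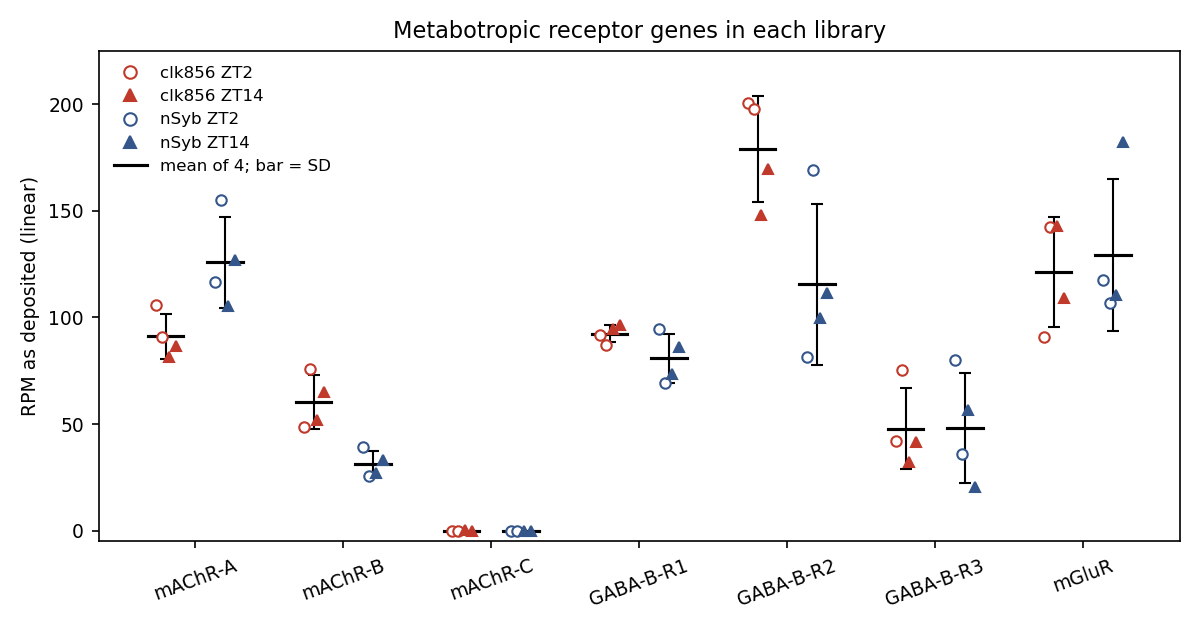
RPM of the 7 receptor genes (y axis, linear, as deposited) in each of the 8 libraries. Circles are ZT2 and triangles ZT14 libraries, red is clk856 and blue is nSyb, and the horizontal line and bar give the mean and SD of 4 libraries. For mAChR-B all 4 clk856 libraries lie above all 4 nSyb libraries, and mAChR-C lies at 0 to 0.21 RPM.

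The comparison of clk856 with nSyb libraries asks which genes differ between clock neurons and neurons at large, with both time points combined. In edgeR's quasi-likelihood test 7784 genes were tested and 1326 passed an adjusted p of 0.05, which is 17.0% of the genes tested, with 805 higher in the clk856 neurons (10.3%) and 521 lower (6.69%). Scaling by library size alone, without TMM, shifted the median of all genes from -0.01 to -0.14 on the log2 scale and gave 675 higher and 787 lower, so that the fold changes below are relative to the TMM scale. Of the 6 receptor genes that passed the filter on low counts, 1 was called, and 3 had an unadjusted p under 0.05. Among all 7784 genes tested, 2303 had an unadjusted p under 0.05. The median log2 fold change of these 6 genes was 0.16, beside -0.01 over all genes tested. In these bulk libraries, fewer cells that express a gene and less RNA of it per cell cannot be told apart.

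mAChR-B, the Gi-coupled muscarinic receptor (FBgn0037546; chromosome 3R, 8059284 to 8087049 of dm6, plus strand, 4 exon blocks in 2 annotated transcripts), shares no exon base with another gene. In the clk856 libraries it was expressed at 48.86 RPM in ZT2 R1, 75.95 RPM in ZT2 R2, 51.74 RPM in ZT14 R1 and 65.20 RPM in ZT14 R2. In the nSyb libraries it was expressed at 39.49 RPM in ZT2 R1, 25.74 RPM in ZT2 R2, 27.15 RPM in ZT14 R1 and 32.95 RPM in ZT14 R2. The lowest clk856 library was thus above the highest nSyb library. Such a separation with clk856 above was seen in 13.5% of the genes tested, and below in 12.3%. The means were 60.4 ± 12.6 RPM (SD, n = 4) and 31.3 ± 6.27 RPM (SD, n = 4), and the log2 fold change was 1.02 (standard error 0.21, 95% interval 0.54 to 1.49, adjusted p = 0.00905, edgeR). The two-sided exact permutation test on RPM gave p = 0.0286, below which an exact permutation of 4 libraries against 4 cannot go. With 2 libraries against 2 the log2 fold change was 1.01 at ZT2 (adjusted p = 0.208, edgeR) and 1.04 at ZT14 (adjusted p = 0.0890, edgeR), and it stayed between 0.89 and 1.15 over 19 alternatives.

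mAChR-A, the Gq-coupled muscarinic receptor (FBgn0000037; chromosome 2R, 24378630 to 24390294, minus strand), has 5 exon blocks in 2 transcripts, and 111 of its exon bases (2.05%) lie in exons of CG13578 on the other strand. Its expression was 106.01, 91.00, 81.44 and 86.43 RPM in the clk856 ZT2 R1, ZT2 R2, ZT14 R1 and ZT14 R2 libraries. The corresponding nSyb libraries were at 116.60, 154.95, 105.22 and 126.71 RPM. Of the 4 clk856 libraries, 3 were below all nSyb libraries, and ZT2 R1 was within 1 RPM of the lowest of them. The means were 91.2 ± 10.6 RPM (SD, n = 4) in clk856 and 126 ± 21.3 RPM (SD, n = 4) in nSyb. The log2 fold change of -0.40 (standard error 0.16, 95% interval -0.75 to -0.04) had an unadjusted p of 0.0308 and an adjusted p of 0.121 (edgeR), and the two-sided exact permutation test gave p = 0.0571. Only with scaling by library size alone did it pass, at -0.52 (adjusted p = 0.0389, edgeR).

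Both muscarinic genes were thus expressed in both neuron populations, in different proportion. Per kilobase of exon, mAChR-A was 1.93, 1.07, 1.40 and 1.18 times mAChR-B in the clk856 ZT2 R1, ZT2 R2, ZT14 R1 and ZT14 R2 libraries. In the nSyb libraries, in the same order, it was 2.63, 5.35, 3.45 and 3.42 times mAChR-B. The RNAs of the 2 receptors were therefore closer to equal in every clk856 library than in any nSyb library. The mean ratio was 1.39 ± 0.383 (SD, n = 4) against 3.71 ± 1.16 (SD, n = 4). A ratio within a library does not depend on the scaling between libraries. It is a description that rests on the values given above for each gene, and no test was made of it.

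mAChR-C, the third muscarinic gene (FBgn0029909; chromosome X, 6831397 to 6832684, minus strand, 2 exon blocks), lies within the span of nonC on the other strand but shares no exon base with it. It was counted with 0, 1, 3 and 0 reads in the clk856 ZT2 R1, ZT2 R2, ZT14 R1 and ZT14 R2 libraries and with 0 reads in all 4 nSyb libraries. All 8 libraries were at or under the limit of 3 reads, which allows at most 0.171 RPM in an nSyb library, so no fold change is given and the gene did not enter the test. Expression of mAChR-C was not detectable at this depth.

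GABA-B-R2 (FBgn0027575; chromosome 3R, 21770333 to 21775840, minus strand, 13 exon blocks in 3 transcripts) encodes the subunit that, by analogy with the mammalian receptor, couples to the G protein. The clk856 libraries were at 200.36 RPM in ZT2 R1, 197.55 RPM in ZT2 R2, 148.17 RPM in ZT14 R1 and 169.38 RPM in ZT14 R2. The nSyb libraries were at 81.59 RPM in ZT2 R1, 169.16 RPM in ZT2 R2, 99.52 RPM in ZT14 R1 and 111.63 RPM in ZT14 R2. The nSyb ZT2 R2 library lay inside the range of the clk856 libraries, while the other 3 nSyb libraries were below all of them. The means were 179 ± 24.8 RPM (SD, n = 4) and 115.5 ± 37.9 RPM (SD, n = 4), a ratio of 1.55. The log2 fold change of 0.69 (standard error 0.22, 95% interval 0.20 to 1.19) had an adjusted p of 0.0605 (edgeR), and the two-sided exact permutation test on RPM gave p = 0.0571. Without the nSyb ZT2 R2 library the log2 fold change was 0.96 (adjusted p = 0.00561, edgeR). DESeq2's Wald test also placed GABA-B-R2 past the threshold (0.69, adjusted p = 0.0204).

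GABA-B-R1 (FBgn0260446; chromosome 2L, 15016331 to 15034704, plus strand, 16 exon blocks in 2 transcripts) encodes the partner subunit, which binds GABA. It varied least among the receptor genes of the clk856 libraries, with 91.54, 87.21, 94.50 and 96.37 RPM in the clk856 ZT2 R1, ZT2 R2, ZT14 R1 and ZT14 R2 libraries. The nSyb libraries in the same order were at 94.36, 69.19, 73.62 and 86.30 RPM. The genotypes overlapped, with means of 92.4 ± 3.99 RPM (SD, n = 4) and 80.9 ± 11.6 RPM (SD, n = 4). The log2 fold change was 0.26 (standard error 0.13, 95% interval -0.03 to 0.56, adjusted p = 0.219, edgeR; two-sided exact permutation p = 0.114).

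The RNAs of the 2 subunits of the GABA-B heterodimer were not at equal levels, and subunit protein was not measured. Per kilobase of exon, GABA-B-R1 was 0.312 to 0.451 times GABA-B-R2 in the clk856 libraries and 0.289 to 0.817 times GABA-B-R2 in the nSyb libraries. GABA-B-R2 was the higher of the pair in all 8 libraries, and the genotypes overlapped in this ratio.

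GABA-B-R3 (FBgn0031275; chromosome 2L, 749945 to 762399, plus strand, 12 exon blocks in 7 transcripts) is the GABA-B receptor gene without a close mammalian counterpart. Its level in the clk856 libraries was 42.01 RPM in ZT2 R1, 75.35 RPM in ZT2 R2, 32.26 RPM in ZT14 R1 and 41.44 RPM in ZT14 R2. In the nSyb libraries it was 79.95 RPM in ZT2 R1, 35.93 RPM in ZT2 R2, 56.80 RPM in ZT14 R1 and 20.72 RPM in ZT14 R2. The libraries of one genotype thus differed by more than 2-fold, and the nSyb range enclosed the clk856 range. The means of 47.8 ± 18.9 RPM (SD, n = 4) and 48.4 ± 25.7 RPM (SD, n = 4) were nearly the same, and the log2 fold change was 0.05 (standard error 0.40, 95% interval -0.85 to 0.95, adjusted p = 0.954, edgeR; two-sided exact permutation p = 1). A 1.5-fold difference in either direction lies within this interval. The sign turned with scaling by library size alone (-0.08) and without the clk856 ZT2 R2 (-0.25), nSyb ZT2 R2 (-0.06) or nSyb ZT14 R2 library (-0.20). A mean over all clk856 neurons does not show differences among clock neurons. From single-cell data, the paper reports strong enrichment of this gene in the cluster of small ventrolateral clock neurons.

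mGluR, the receptor for glutamate (FBgn0019985; chromosome 4, 936819 to 949441, plus strand, 7 exon blocks in 4 transcripts), has 57 exon bases (0.897%) in a transposon annotated on the same strand. Its expression was 90.81, 142.43, 142.78 and 108.92 RPM in the clk856 ZT2 R1, ZT2 R2, ZT14 R1 and ZT14 R2 libraries. It was 117.45, 106.57, 110.35 and 182.30 RPM in the corresponding nSyb libraries. The nSyb ZT14 R2 library was above all others and the remaining 3 nSyb libraries lay inside the clk856 range. The means were 121 ± 25.8 RPM (SD, n = 4) and 129 ± 35.7 RPM (SD, n = 4), and the log2 fold change was -0.02 (standard error 0.21, 95% interval -0.48 to 0.44, adjusted p = 0.962, edgeR; two-sided exact permutation p = 0.771). Without the nSyb ZT14 R2 library it was 0.18 (adjusted p = 0.555, edgeR), and it was also above 0 without clk856 ZT2 R1 (0.09) or clk856 ZT14 R2 (0.03).

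**Figure D2:**
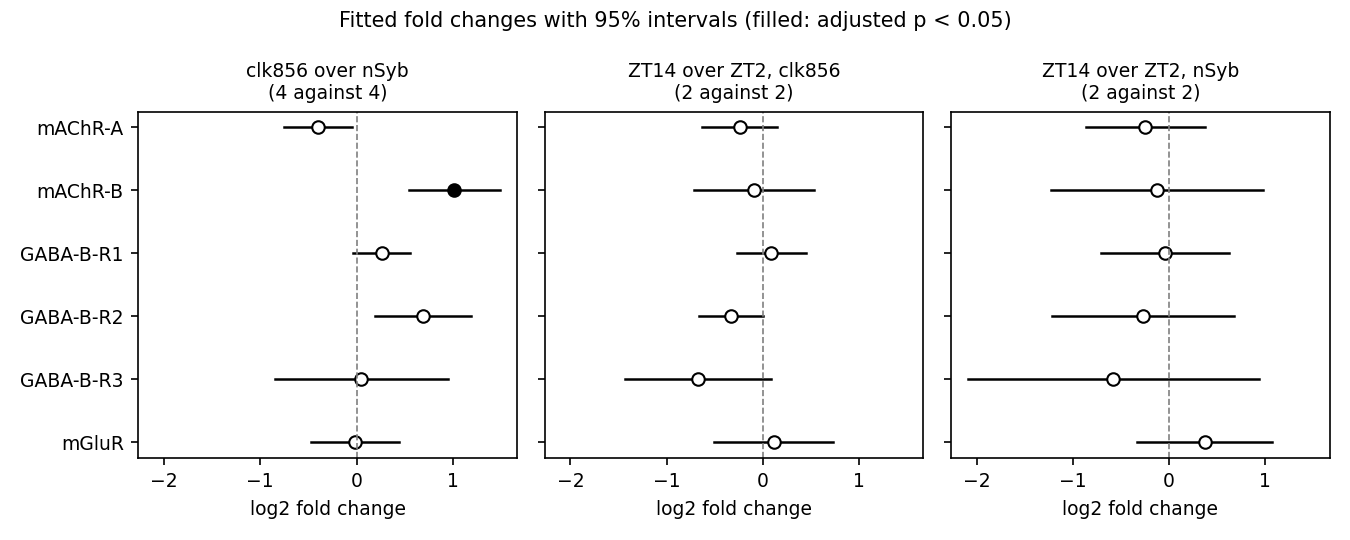
Fitted log2 fold changes (x axis) of the 6 receptor genes that passed the filter, as points with 95% intervals, for clk856 over nSyb (4 libraries against 4) and for ZT14 over ZT2 in clk856 and in nSyb (2 against 2 each). The filled point marks an adjusted p under 0.05, which mAChR-B reached between the genotypes (1.02, interval 0.54 to 1.49), and all other points are open.

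To compare levels between genes, RPM was divided by the kilobases of merged exon bases of each gene. On this scale GABA-B-R2 was the highest receptor gene in the clock neurons, at 44.9 ± 6.22 RPM per kb (SD, n = 4), above 92.6% of the 11719 genes compared. It was followed by mGluR at 19.1 ± 4.06, mAChR-A at 16.8 ± 1.95, GABA-B-R1 at 16.4 ± 0.708, mAChR-B at 12.5 ± 2.60 and GABA-B-R3 at 6.79 ± 2.69 RPM per kb (SD, n = 4 each). Neighbours in this order overlapped between libraries from mGluR to GABA-B-R3, so that GABA-B-R2 was the gene that stood apart from its neighbour, along with GABA-B-R3 above mAChR-C at 0.064 RPM per kb.

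In the nSyb neurons GABA-B-R2 was also first, at 29.0 ± 9.49 RPM per kb, followed by mAChR-A at 23.2 ± 3.92, mGluR at 20.3 ± 5.62, GABA-B-R1 at 14.3 ± 2.05, GABA-B-R3 at 6.87 ± 3.66 and mAChR-B at 6.50 ± 1.30 RPM per kb (SD, n = 4 each), with mAChR-C at 0. GABA-B-R2 overlapped with mAChR-A and mAChR-A with mGluR, and so did GABA-B-R3 with mAChR-B, whereas mGluR was above GABA-B-R1 and GABA-B-R1 above GABA-B-R3 in every library. mAChR-A took place 2 among the receptors in the nSyb neurons and place 3 in the clk856 neurons, and mAChR-B place 6 and place 5.

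**Figure D3:**
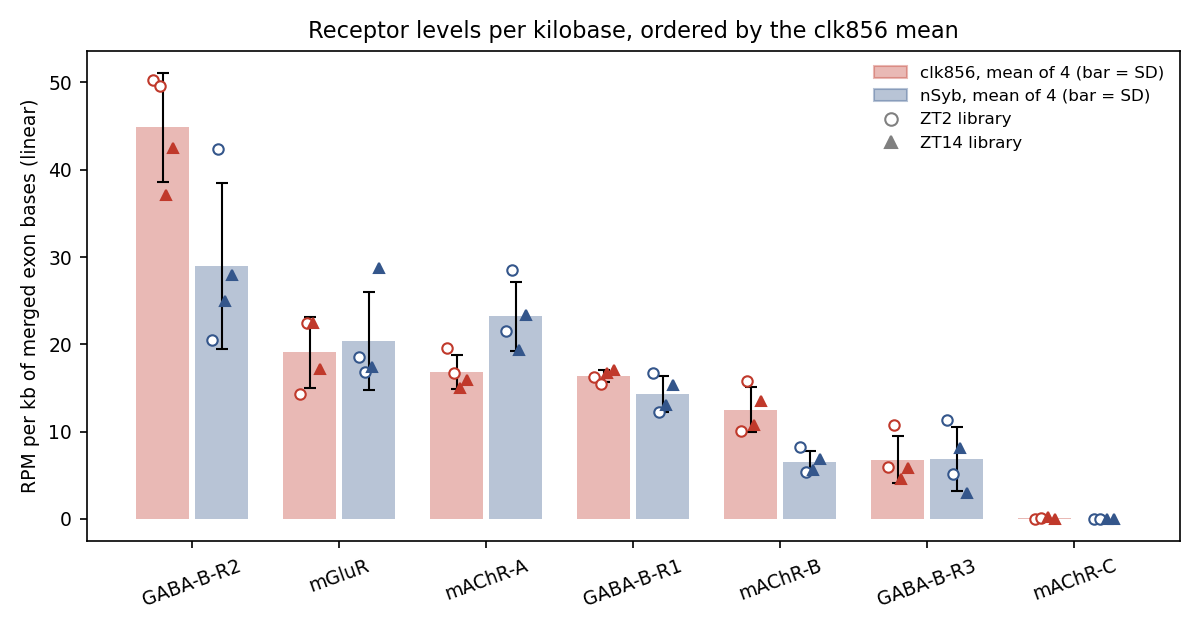
Level of the 7 receptor genes in RPM per kb of merged exon bases (y axis, linear, from 0), ordered by the clk856 mean. Bars are means of 4 libraries with the SD, red for clk856 and blue for nSyb, with circles for ZT2 and triangles for ZT14 libraries. GABA-B-R2 has the highest mean in both genotypes, at 44.9 and 29.0 RPM per kb, and GABA-B-R3 is at 6.79 and 6.87 RPM per kb.

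Summed by ligand, the 3 GABA-B genes made up 54.7% to 62.2% of the receptor level per kilobase in a clk856 library and 44.0% to 54.1% in an nSyb library. The 3 muscarinic genes made up 24.2% to 26.3% and 28.3% to 30.7%, and mGluR 12.3% to 21.03% and 15.2% to 27.3%. The GABA-B genes thus took the largest share in all 8 libraries, in a sum that counts both subunits of the GABA-B heterodimer. The genotypes did not overlap in the GABA and acetylcholine shares and overlapped in the glutamate share. For GABA the lowest clk856 library (54.7%) was only slightly above the highest nSyb library (54.1%). The shares sum to 100% in a library and so cannot move independently, and no test was made of them.

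**Figure D4:**
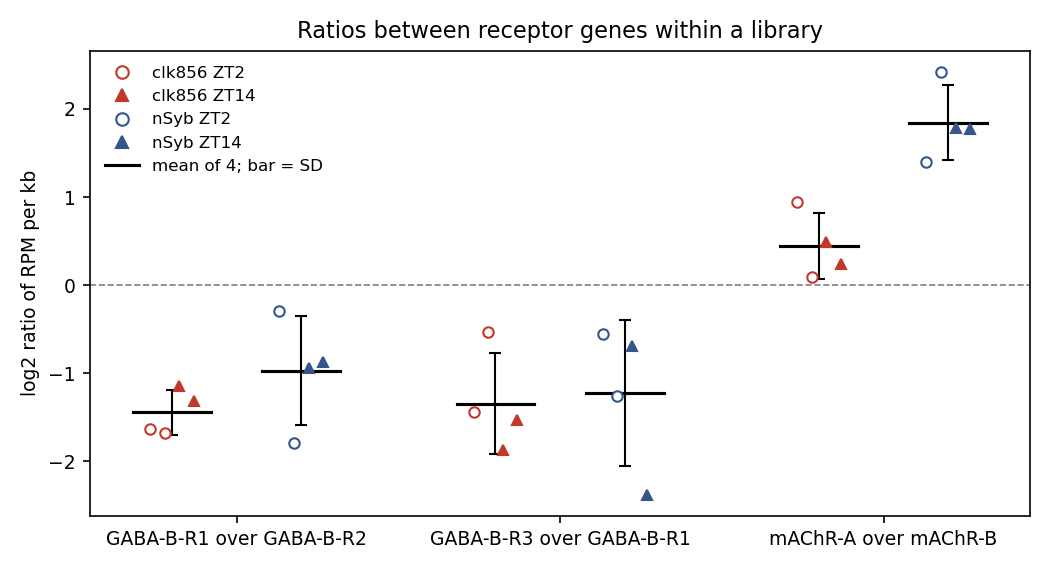
Log2 ratio of RPM per kb between pairs of receptor genes within a library (y axis) for 3 pairs (x axis). Circles are ZT2 and triangles ZT14 libraries, red is clk856 and blue nSyb, with the mean and SD of 4 libraries, and the dashed line marks equal levels. For mAChR-A over mAChR-B the genotypes do not overlap (mean log2 ratio 0.44 in clk856 and 1.84 in nSyb), and they overlap for the other 2 pairs.

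The comparison of ZT14 with ZT2 asks whether expression differs between morning and early night. In the clk856 neurons 2 of 8188 genes passed the test (0.0244%), with 554 at an unadjusted p under 0.05. None of the 6 receptor genes tested was among the 2. Both were clock neuron markers, higher at ZT14, and the other 4 of the 6 clock neuron markers did not pass. Clk, which the paper reports as higher at ZT2, was among those that did not pass. The lack of a call therefore does not show that the receptor genes were constant. One receptor gene, GABA-B-R2, had an unadjusted p under 0.05. The count of 2 was larger under other tests, with 97 genes for edgeR's likelihood ratio test and 76 for DESeq2, and no receptor gene was called by either.

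GABA-B-R2 was at 200.36 and 197.55 RPM at ZT2 and at 148.17 and 169.38 RPM at ZT14 in the clk856 libraries, and the log2 fold change was -0.33 (standard error 0.14, 95% interval -0.66 to -0.0012, unadjusted p = 0.0494, adjusted p = 0.736, edgeR). GABA-B-R3 was at 42.01 and 75.35 RPM at ZT2 and at 32.26 and 41.44 RPM at ZT14, a log2 fold change of -0.67 (standard error 0.31, 95% interval -1.43 to 0.09, adjusted p = 0.758, edgeR). It was -0.20 without ZT2 R2, the library at 75.35 RPM, and -1.04 without ZT2 R1. For GABA-B-R2, GABA-B-R3 and mAChR-A the 2 ZT2 libraries were above the 2 ZT14 libraries, and for GABA-B-R1 below them. These 4 of 6 genes compare with 38.5% of all genes tested whose libraries did not overlap between the time points, and 2 libraries against 2 cannot give a two-sided exact permutation p below 0.333. The log2 fold changes were -0.24 for mAChR-A (adjusted p = 0.830), -0.10 for mAChR-B (adjusted p = 0.977), 0.09 for GABA-B-R1 (adjusted p = 0.952) and 0.11 for mGluR (adjusted p = 0.969), each from edgeR. For mAChR-B the sign turned without the clk856 ZT2 R2 library (0.25) or ZT14 R1 (0.04), and for mGluR without ZT2 R1 (-0.19) or ZT14 R1 (-0.12).

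In the nSyb neurons 0 of 7671 genes passed edgeR's quasi-likelihood test between the time points (0.0%), with 303 at an unadjusted p under 0.05, 6 called by the likelihood ratio test, 2 by the exact test and 175 by DESeq2, no receptor gene among any of them. The time points overlapped for all 6 receptor genes tested, while 32.4% of all genes tested did not overlap. The log2 fold changes were -0.25 for mAChR-A, -0.13 for mAChR-B, -0.04 for GABA-B-R1, -0.28 for GABA-B-R2, -0.58 for GABA-B-R3 and 0.37 for mGluR (adjusted p = 0.9999 for each, edgeR). Each of the 6 values turned sign without 1 of the 4 libraries. Without ZT2 R1 the value was 0.18 for mAChR-B, 0.16 for GABA-B-R1 and 0.07 for GABA-B-R3, without ZT2 R2 it was 0.02 for mAChR-A and 0.40 for GABA-B-R2, without ZT14 R1 it was 0.06 for GABA-B-R1 and 5.8e-04 for mAChR-B, and without ZT14 R2 it was -0.01 for mGluR.

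The difference of the time effects between the genotypes was tested itself, as an interaction over all 8 libraries. Of 8926 genes 1 passed (0.0112%), and none of the 6 receptor genes tested had even an unadjusted p under 0.05. The differences on the log2 scale ran from -0.28 (standard error 0.42, adjusted p = 0.9998, edgeR) for mGluR to 0.12 (standard error 0.28, adjusted p = 0.9998, edgeR) for GABA-B-R1. Each of the 6 differences turned sign without at least 1 of the 8 libraries. The widest 95% interval was that of GABA-B-R3, from -1.92 to 1.70, and the narrowest that of GABA-B-R1, from -0.53 to 0.77. The libraries therefore left differences of more than 1.5-fold possible for every receptor gene.

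The spread between libraries also differed between the genotypes. The biological coefficient of variation was estimated by edgeR over the 4 libraries of a genotype without a term for time. It therefore includes any difference between ZT2 and ZT14. For the 6 receptor genes it was 0.141 to 0.276 in the clk856 libraries and 0.206 to 0.436 in the nSyb libraries. It was larger in the nSyb libraries for each of them. Over all 7784 genes the common value was 0.367 and 0.8285. These genes were filtered on both genotypes together, and a gene could pass through the libraries of 1 genotype, so the common values are not strictly comparable. GABA-B-R3 had the largest value of the receptor genes in both genotypes, and the smallest was that of GABA-B-R1 in clk856 and of mAChR-A in nSyb.

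Other genes of the same transmitters were compared between the genotypes in the same fit, in which 10.3% of all genes were higher and 6.69% lower in the clk856 neurons. With the ZT2 libraries only, 2 against 2, none of the genes named below from these lists passed. With the ZT14 libraries only, also 2 against 2, only ChAT, nAChRbeta1, Rdl, Nmdar1, Ggamma30A, Ggamma1, cac and 5-HT1A passed. Of the 4 genes of acetylcholine supply, ChT, the choline transporter, was higher in the clk856 neurons (log2 fold change 1.24, adjusted p = 0.0312) and ChAT, which makes acetylcholine, was lower (-0.74, adjusted p = 0.00142), and 2 did not pass. The call of ChT was lost without nSyb ZT2 R1 or without clk856 ZT2 R1, ZT14 R1 or ZT14 R2, with log2 fold changes between 1.004 and 1.49 over its 19 alternatives. None of the 3 genes of GABA supply passed, and Gad1, which makes GABA, had a log2 fold change of 0.33 (adjusted p = 0.367), while VGAT, the vesicular GABA transporter, had one of -0.37 (adjusted p = 0.0670). VGAT passed with DESeq2 (adjusted p = 0.0148) and with scaling by library size alone (-0.49, adjusted p = 0.0161). Of the 4 genes of glutamate supply, the transporter gene Eaat2 was higher (0.95, adjusted p = 0.00430) and Eaat1 lower (-1.78, adjusted p = 0.0456). The call of Eaat1 held in 10 of 19 alternatives and was lost with the replicate block and without each of the 4 nSyb libraries, clk856 ZT2 R2 or clk856 ZT14 R1, with an adjusted p of at most 0.221. Eaat1 and Gs2 of this list are also among the 6 glia markers, whose sum was lower in every clk856 library than in every nSyb library. Of these markers, repo and moody had the higher mean in the clk856 libraries. The median log2 fold changes were 0.32, 0.33 and -0.42 for the acetylcholine, GABA and glutamate supply genes, beside -0.01 for all genes. The glutamate median includes Eaat1 and Gs2. Gs2 had a mean of 29.2 RPM in clk856 and 62.1 RPM in nSyb, and VGlut had 258 and 235 RPM. Neither of them passed.

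The ionotropic receptors of the same transmitters differed in both directions. Of 9 nicotinic receptor subunits tested, 4 were lower in the clk856 neurons (6.69% of all genes were), among them nAChRalpha7 (-0.74, adjusted p = 0.0100), nAChRalpha6 (-0.70, adjusted p = 0.00307) and nAChRbeta1 (-0.63, adjusted p = 4.7e-04), and nAChRalpha1 was higher (0.48, adjusted p = 0.0200). The median of the nicotinic subunits was -0.27, and nAChRalpha1 no longer passed with scaling by library size alone (0.35, adjusted p = 0.0728) or without clk856 ZT14 R1 or ZT14 R2. The lower subunit not listed above, nAChRbeta2, held in 8 of 19 alternatives and in 2 of the 8 that left out 1 library. Of 3 GABA-gated channel subunits, Lcch3 (-1.04, adjusted p = 0.0108) and Rdl (-0.65, adjusted p = 4.3e-04) were lower, with Rdl at 579 ± 30.5 RPM against 949 ± 48.6 RPM (SD, n = 4 each). Of 7 glutamate-gated channel genes tested, the AMPA-type subunit gene GluRIA (1.65, adjusted p = 9.7e-04) and Nmdar1 (1.51, adjusted p = 5.2e-04) were higher and the chloride channel gene GluClalpha was lower (-0.77, adjusted p = 0.00172). The median was -0.65 for the GABA-gated and -0.06 for the glutamate-gated channels. Nmdar1, a subunit of the NMDA receptor, was at 123 ± 6.16 RPM in the clk856 and 45.5 ± 11.8 RPM in the nSyb neurons (SD, n = 4 each).

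Among 6 Gi/o and Gq protein genes tested, Galphao, the alpha subunit of Go, was higher in the clk856 neurons (0.59, adjusted p = 0.00767), and the gamma subunit genes Ggamma30A (-0.93, adjusted p = 6.7e-05) and Ggamma1 (-0.48, adjusted p = 0.00397) were lower. Galphaq did not pass (0.16, adjusted p = 0.750). Of 13 effector genes tested, 2 were higher and 4 lower, beside 10.3% and 6.69% of all genes. The adenylyl cyclase gene Ac13E (1.54, adjusted p = 0.0285) and the IP3 receptor gene Itpr (1.04, adjusted p = 0.0357) were higher, and the calcium channel gene cac (-0.83, adjusted p = 4.9e-04), Pkc53E (-0.68, adjusted p = 0.0168) and the phospholipase C gene Plc21C (-0.54, adjusted p = 0.0333) were among those lower. Of these, cac and Pkc53E were called whichever library was left out. The calls of Itpr and Plc21C held in only 2 of the 8 fits that left out 1 library, and that of Ac13E in 4. Without clk856 ZT2 R2 or without clk856 ZT14 R2 no effector was called as higher and 2 as lower. Itpr was also lost without nSyb ZT2 R1, nSyb ZT2 R2, nSyb ZT14 R2 or clk856 ZT14 R1, with the replicate block and with scaling by library size alone (0.92, adjusted p = 0.0543), and Ac13E without nSyb ZT14 R1 or clk856 ZT2 R1. Plc21C was lost without nSyb ZT2 R2, nSyb ZT14 R2 or any 1 of the clk856 libraries. The median was 0.21 for the G protein genes and -0.54 for the effectors. Of 6 genes of receptor desensitization and scaffolding, the receptor kinase gene Gprk2 (1.68, adjusted p = 0.00502) and RSG7 (0.78, adjusted p = 0.00437), a regulator of G protein signaling, were higher, and Gprk1 was lower (-0.62, adjusted p = 0.00638), with a median of 0.62.

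For comparison with metabotropic receptors of other transmitters, 8 of 16 amine receptor genes tested passed, 5 higher and 3 lower in the clk856 neurons, beside 10.3% and 6.69% of all genes. Dop2R had the highest log2 fold change (2.94, adjusted p = 0.00146), followed by 5-HT1A (2.13, adjusted p = 1.4e-04) and 5-HT7 (1.89, adjusted p = 0.0106). The lowest were those of Octbeta1R (-0.96, adjusted p = 0.00501), Dop1R1 (-0.57, adjusted p = 0.0146) and DopEcR (-0.48, adjusted p = 0.0185), the last of which was lost without clk856 ZT2 R1 or clk856 ZT14 R2. Among the 5 higher genes, the call of Oamb held in only 4 of the 8 fits that left out 1 library. The list's median was 0.62, beside 0.16 for the 6 metabotropic receptor genes, and the difference between these lists was not tested. None of the genes of these 10 transmitter, channel, G protein and receptor lists passed the test between ZT2 and ZT14 in either genotype.

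The genes whose pattern over the 8 libraries was most like that of each receptor gene were sought by the root mean square difference of log2 CPM, each gene centred on its mean, among 7784 genes. The closest were Surf4, CG11247 and hfp for mAChR-A (0.0742 for Surf4), X11L, GstO2 and tara for mAChR-B (0.122 for X11L), and stai, Rpn11 and Oda for GABA-B-R1 (0.0565 for stai). For GABA-B-R2 they were CG6184, Spred and RhoBTB (0.118 for CG6184), for mGluR CG31687, Dak1 and CG17776 (0.123 for CG31687), and for GABA-B-R3 CG3651, CG34195 and CG5196. The nearest gene to GABA-B-R3 was at 0.287, the farthest of the 6 nearest genes. No receptor gene was among the 3 nearest of another, and the closest pair of receptors, GABA-B-R1 and mGluR, differed by 0.318, while mAChR-A and mAChR-B differed by 0.781. These distances rest on 8 libraries that differ in depth and, between the genotypes, in the numbers of cells and brains, and are a description.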

How the data were processed

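Poly(A) RNA of the sorted neurons was amplified as cDNA (SmartSeq2) and made into Nextera XT libraries. Per the study's methods and the submitters' processing notes, bcl2fastq 2.20 was used, reads were aligned to dm6 by STAR, and Picard removed PCR duplicates. The annotation, the counting program and the counting strand are not given in the sources used here. For each library the authors deposited raw read counts per gene. The deposited RPM values are these counts divided by a total that was 1.84 to 1.88 times all reads listed. The deposited RPKM values are RPM per kilobase of a deposited length that, for all 7 receptor genes, was the gene's span plus 1, introns included. They served only as an alternative for the order of levels.

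Positions and exon lengths were read from the BDGP6.54 gene models (Ensembl, dm6), in which 17161 of 17868 symbols matched. Reads outside annotated genes (5.53% to 8.94% of a library) and ambiguous reads (5.67% to 6.10%) were left out. Counts were tested with edgeR 4.0.16 in R 4.3.3 (TMM, filterByExpr with a minimum count of 10, quasi-likelihood test), with Benjamini-Hochberg adjustment over all genes tested and a threshold of 0.05. Genotypes were compared 4 against 4 without a covariate, time points 2 against 2, and the interaction in all 8 libraries. For each receptor gene a two-sided exact permutation test was also run on RPM. Log2 CPM used a prior count of 2. Alternatives were other scalings, filters and tests, DESeq2 1.42.0, a covariate for time, a block for the replicate number, either time alone, and leaving out each library. The scripts were tested on simulated data (Python 3.11.15, pandas 2.3.3, numpy 2.4.6, scipy 1.17.1, matplotlib 3.10.9).

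Libraries of one condition differed by a chi-square over degrees of freedom of 20.1 to 96.0, more than counting error. The receptor genes were taken by name and their values were not used. Earlier results of these data were known when they and the lists of related genes and markers were chosen. Named were all 7 receptor genes, from each list of related genes at most the 3 highest and 3 lowest log2 fold changes past the threshold, and the 3 nearest genes of each receptor gene. Gad1, VGAT, Gs2, VGlut, Galphaq, nAChRbeta2 and Oamb were named after their values were seen.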

Additional observations from a re-analysis of the deposited data

Results flagged for a closer look

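One result was far enough from its group to be singled out. The mGluR level of 182.30 RPM in the nSyb ZT14 R2 library was separated from the other 3 nSyb libraries (106.57 to 117.45 RPM) by 0.856 of the whole range of the group, above Dixon's 95% critical value for 4 samples. Of 19 groups of 4 libraries examined in this way, 1 was singled out, and chance alone gives about 1 in 20. Without this library the log2 fold change of mGluR between the genotypes was 0.18 (adjusted p = 0.555, edgeR) in place of -0.02, and that between ZT14 and ZT2 in the nSyb neurons was -0.01 in place of 0.37.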

How the results depend on the processing

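The log2 fold change of mAChR-B between the genotypes stayed above 0 and under an adjusted p of 0.05 in 17 of 19 alternatives, and missed it with the ZT2 libraries only (1.01, adjusted p = 0.208) and the ZT14 libraries only (1.04, adjusted p = 0.0890), where 2 libraries were compared with 2. GABA-B-R2 passed in 5 of 19 alternatives: the likelihood ratio test (0.69, adjusted p = 0.0264), the exact test (0.69, adjusted p = 0.0268), DESeq2 (0.69, adjusted p = 0.0204), the replicate block and without nSyb ZT2 R2, and leaving out 1 library gave 0.56 to 0.96. mAChR-A passed in 1 of 19, with library size alone (-0.52). GABA-B-R3 turned to -0.083 with library size alone and to -0.0019 with ZT14 libraries only, and mGluR to 0.13 with ZT2 libraries only, and without 1 library they ran from -0.25 to 0.40 and from -0.11 to 0.18. The count of receptor genes called between the genotypes was 2 with library size alone, the likelihood ratio test, the exact test and DESeq2, 0 with the ZT2 or the ZT14 libraries only, and 1 to 2 without 1 library. The cause of these changes was not tested.

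Same-numbered libraries did not deviate together (correlations of -0.03 to 0.03), and the labels give no pairing. With the replicate block GABA-B-R2 reached 0.73 (adjusted p = 0.0415), which made 2 receptor genes called between the genotypes, and 4 genes in all were called between the time points in clk856.

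Over all genes, the calls between the genotypes numbered 2156 with DESeq2, 8 with the ZT2 libraries only and 340 with the ZT14 libraries only. Between the time points in clk856 they numbered 81 without the filter, 97 with the likelihood ratio test, 38 with the exact test, 76 with DESeq2 and 0 in one fit of all libraries. In nSyb they numbered 6, 2 and 175 with the likelihood ratio test, the exact test and DESeq2, 1 in one fit of all libraries, and 0 to 1 without 1 library. In the interaction they numbered 98 without the filter, 85 with the likelihood ratio test, 148 with DESeq2 and 0 to 85 without 1 library, the 85 without nSyb ZT2 R2. The exact test could not be run for the interaction.

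No receptor gene was called between the time points or in the interaction under any alternative, and 35 such log2 fold changes turned sign while 211 did not. Without 1 library, the values in clk856 ran from -0.39 to 0.25 for mAChR-B and from -0.19 to 0.46 for mGluR. In nSyb they ran from -0.46 to 0.016 for mAChR-A, -0.37 to 0.18 for mAChR-B, -0.21 to 0.16 for GABA-B-R1, -0.72 to 0.40 for GABA-B-R2, -1.49 to 0.071 for GABA-B-R3 and -0.012 to 0.68 for mGluR. In the interaction they ran from -0.26 to 0.24 for mAChR-A, -0.26 to 0.37 for mAChR-B, -0.065 to 0.30 for GABA-B-R1, -0.73 to 0.40 for GABA-B-R2, -0.73 to 0.83 for GABA-B-R3 and -0.56 to 0.13 for mGluR, and that of mAChR-A was also above 0 with RLE size factors (0.0023), library size alone (0.0082), no filter (0.0084), a minimum count of 5 (1.1e-04) and DESeq2 (0.0024). The order of levels per kilobase was the same with the longest transcript (14 of 14 places) and differed with the deposited RPKM (12 of 14), which placed GABA-B-R3 above mAChR-B in clk856.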
